A study of Mus musculus with 9 samples.

Results

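The ATF4 amino acid response was followed through 36 genes that encode the transcription factor ATF4, its relatives and genes known as its targets. They were taken by gene symbol from a list drawn up with earlier results of these data known, so counts over the list describe these genes and are no independent evidence. All 36 were found among the 19094 genes listed for 3T3-L1 cells, and all 36 were among the 13154 genes that passed the filter of edgeR and were tested. 3T3-L1 is a mouse fibroblast-like line of preadipocytes that can be turned into lipid-storing adipocytes in culture. RNA was sequenced in 3 replicates at each of 3 stages. All cultures grew in high-glucose DMEM with fetal bovine serum, L-glutamine, penicillin and streptomycin. Day 0 cells were near confluence and had received no inducer. Day 4 cells had spent 2 days with dexamethasone, IBMX and insulin and then 2 days in maintenance medium with insulin alone. Day 8 cells had spent 4 further days in fresh maintenance medium. Day of differentiation, exposure to the inducers and time since the last change of medium therefore moved together in this design and cannot be told apart. Cells of each stage were pooled for RNA extraction and nothing says that replicates came from separate cultures, so the replicates may be technical and p-values measure only the spread between these samples.

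Cells that run short of an amino acid, or whose endoplasmic reticulum is under stress, phosphorylate the translation factor eIF2. General translation then falls, while the ATF4 mRNA is translated more. ATF4 pairs with C/EBP proteins on DNA and switches on genes for amino acid synthesis and uptake, for charging tRNAs and for feedback on the pathway. ATF4 is therefore controlled largely at the level of its protein, and the data here hold mRNA only. In bulk RNA, fewer cells of a type and less RNA per cell cannot be told apart.

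Expression was given by the authors as RSEM expected counts, which summed to between 18216114 and 20452144 per sample, and as FPKM, which is scaled to gene length and sample depth. Scaling by library size alone, with no TMM factors, put the median log2 fold change of all genes over the whole process at -0.111 relative to that with TMM factors, and FPKM carries no TMM factors, so levels and fitted changes can differ slightly. Levels below are FPKM and changes are log2 fold changes from edgeR's quasi-likelihood test on the counts, with all 9 samples in one model. A gene rose or fell where its Benjamini-Hochberg adjusted p over all 13154 genes was under 0.05, and it was upregulated or downregulated where the fold change was also above 2. Day 4 against day 0 is called the early phase, day 8 against day 4 the late phase and day 8 against day 0 the whole process. The early and late phases share the day 4 samples, so each is given with its own values. Intervals are 95% intervals of the log2 fold change and are not adjusted for the number of genes.

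Most members were lower at day 4 than before and higher again at day 8. In the early phase, 30 of the 36 members fell, 3 rose and 3 did not pass the test, while 33.7% of all genes tested fell and 35.5% rose. The median log2 fold change was -0.69 for the members and 0.02 for all genes tested. Every day 4 sample lay below every day 0 sample in 30 of the 36 members, the same 30 that fell, and in 35.4% of all genes tested. The separation and the calls rest on the same samples, so it adds nothing to the count of falls. In the late phase, 29 members rose and 2 fell, against 22.5% and 22.7% of all genes, and the median was 0.36 beside -0.01. Over the whole process, 11 members rose and 21 fell, against 34.8% and 36.2% of all genes, with a median of -0.26 beside -0.02. Most of these changes were smaller than 2-fold. Early, 8 members were downregulated and 1 was upregulated, against 7.98% and 9.77% of all genes. Late, 5 were upregulated and 1 was downregulated, against 4.24% and 2.81%. Over the whole process 0 were upregulated (DESeq2 also gave 0, and 11 members were higher at edgeR's adjusted threshold alone) and 2 were downregulated, against 10.3% and 7.70%.

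**Figure D1:**
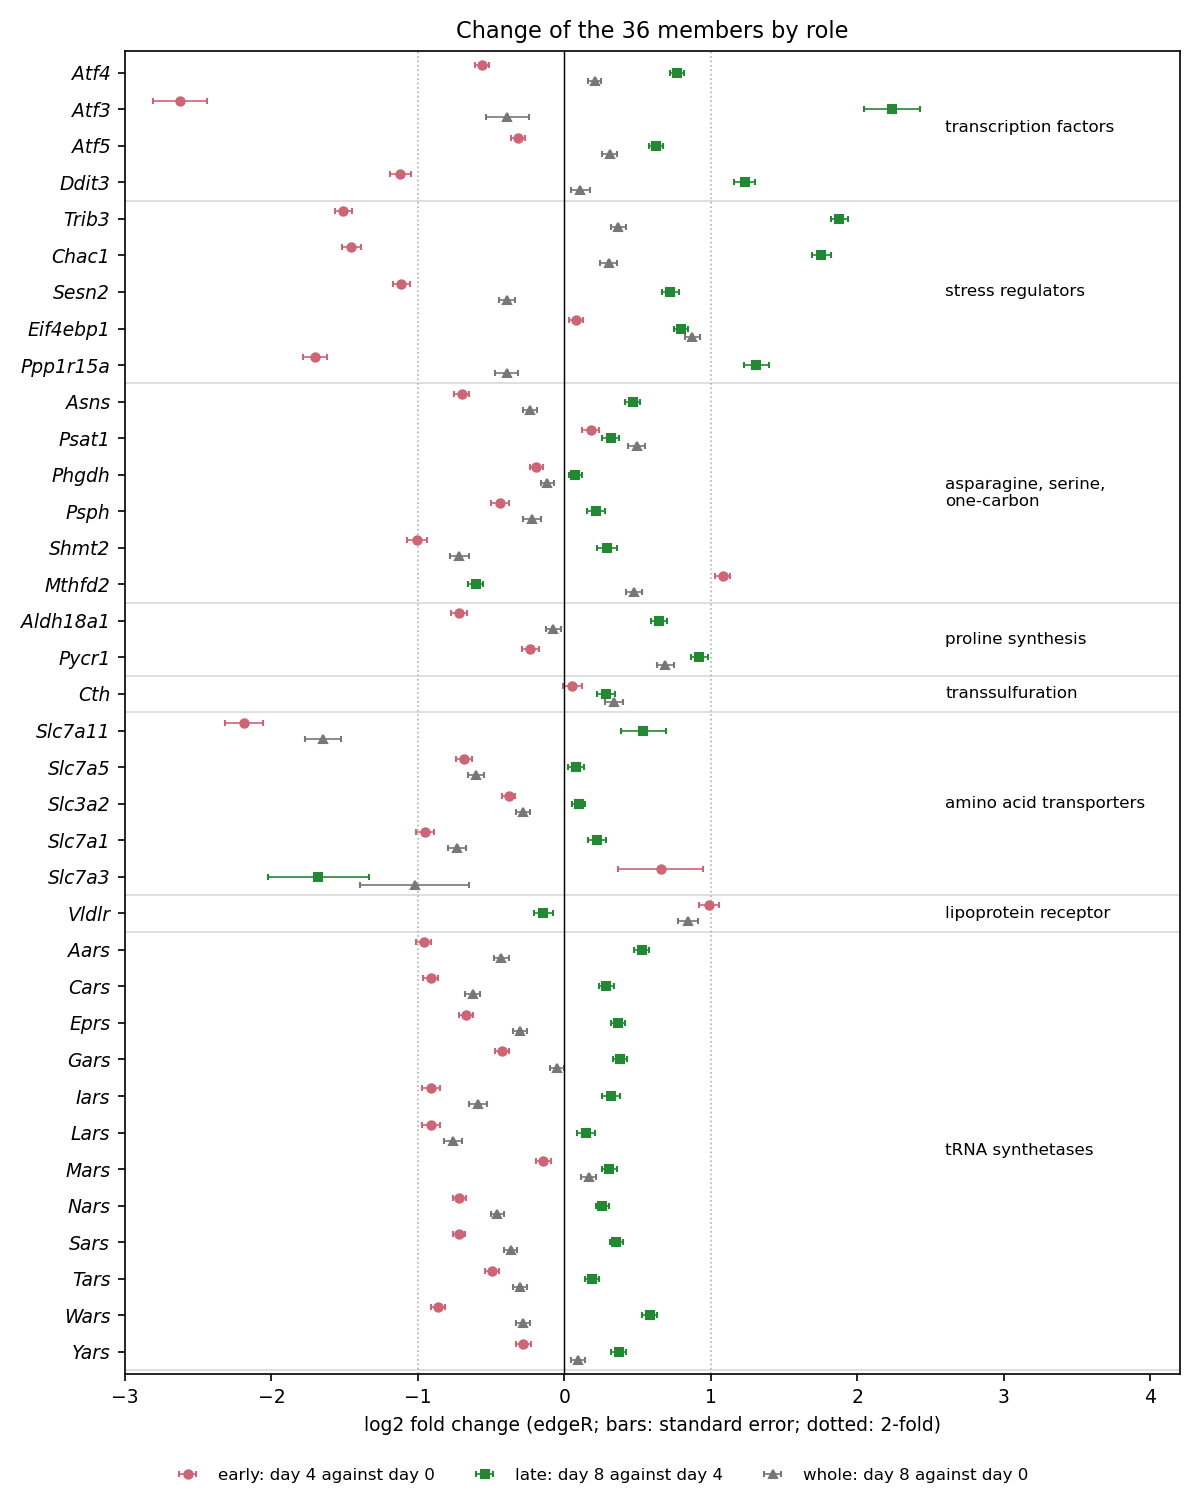
Log2 fold changes (x axis, edgeR) of the 36 members (y axis, grouped by role) for the early phase (circles), the late phase (squares) and the whole process (triangles), with standard errors as bars and dotted lines at a 2-fold change. Circles lie left of 0 and squares right of 0 for most members, and the clear exceptions are Mthfd2, Slc7a3 and Vldlr.

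The sequence that ATF4 binds together with a C/EBP partner has the core TGATGNAA, which reads TTNCATCA on the opposite strand. It was searched on both strands of RefSeq promoter windows of 300 bases (250 before and 50 after the transcription start, build GRCm38.p6), without reference to any other motif. Windows were given for 28 of the 36 members, and 12 of these held the core, against 2.78% of the 10416 tested genes that have a window. Genes are known as targets of ATF4 partly through such elements, so this count describes how the list is made and is no test. Among the genes with the core were Atf3, Trib3, Chac1, Asns, Pycr1, Slc7a11, Vldlr, Gars, Iars, Tars and Yars. Counted as genes with a window, 5 of 8 tRNA synthetases on the list held it, 0 of 8 other cytosolic synthetases and complex proteins, 0 of 14 mitochondrial synthetases, 5 of 18 other ATF4 targets and 2 of 9 partners. A match is a stretch of letters and not a shown binding site, and a window without one says only that these letters were not in it. The 7 stretches below are shown because these genes carry the same core and took different courses over the 8 days. They are read 5′ to 3′ on the strand of the gene, with the core in capitals.
Chac1: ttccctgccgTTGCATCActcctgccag
Atf3: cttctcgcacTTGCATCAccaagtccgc
Asns: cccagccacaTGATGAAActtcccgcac
Pycr1: gccctgtgtaTGATGCAAtgcacaaggc
Tars: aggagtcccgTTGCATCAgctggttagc
Slc7a11: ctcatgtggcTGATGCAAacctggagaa
Vldlr: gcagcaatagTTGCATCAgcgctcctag
The stretch of Chac1 lies at chr2:119351039-119351066 (plus strand) and that of Atf3 at chr1:191183426-191183453 (minus strand). Those of Asns at chr6:7693215-7693242, Pycr1 at chr11:120643834-120643861 and Tars at chr15:11399656-11399683 are on the minus strand. That of Slc7a11 lies at chr3:50443662-50443689 (minus strand) and that of Vldlr at chr19:27216810-27216837 (plus strand). All 7 cores begin upstream of the start, from 15 bases (Tars) to 200 bases (Vldlr) before it. Slc7a11 has a second core on the opposite strand, 47 bases before the start.

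All 4 transcription factors fell early and rose late. Atf4 (NCBI gene ID 11911), the activator that gives the response its name, had 287, 298 and 284 FPKM at day 0, 187, 182 and 199.6 at day 4, and 311, 308 and 319 at day 8. Every day 4 sample was below all others, and every day 8 sample was above all day 0 samples. Its log2 fold change was -0.56 (standard error 0.05, edgeR adjusted p = 1.9e-08) early and 0.77 (standard error 0.05, edgeR adjusted p = 1.9e-09) late. From day 0 to day 8 Atf4 was higher by 0.21 (standard error 0.05, edgeR adjusted p = 8.6e-04), a call that was lost when library size alone set the scale (0.09, edgeR adjusted p = 0.0799).

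Ddit3 (13198) encodes CHOP, a factor induced by ATF4 and tied to cell death under prolonged stress. It had 124, 108 and 129.8 FPKM at day 0, 56.7, 51.1 and 51.6 at day 4, and 119, 117 and 127 at day 8. Its day 4 samples were clearly apart, while day 0 and day 8 samples overlapped. Ddit3 was downregulated early, at -1.12 (standard error 0.07, edgeR adjusted p = 5.8e-10), and upregulated late, at 1.23 (standard error 0.07, edgeR adjusted p = 9.4e-10). The change over the whole process did not pass the test, with an interval of -0.03 to 0.25 (95%, log2 scale). It did pass without day 0 replicate 3 (0.17) and was -0.0013 with library size alone. The annotation places 9.10% of the exon bases of Ddit3 under exons of genes on the other strand, among them Mars, and the strand setting of the counting is not stated.

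Atf3 (11910), a stress-induced repressor and one of the stretches shown above, had the lowest level of the 4 factors and the largest change. It had 6.16, 5.17 and 5.77 FPKM at day 0, 1.23, 0.84 and 0.57 at day 4, and 3.89, 3.71 and 4.5 at day 8, so the days did not overlap. Day 4 held 22 to 49 counts per sample. Its log2 fold change was -2.63 (standard error 0.19, edgeR adjusted p = 2.4e-09) early and 2.24 (standard error 0.19, edgeR adjusted p = 1.0e-07) late. From day 0 to day 8 it fell by 0.39 on the log2 scale (edgeR adjusted p = 0.0257), a call lost without day 0 replicate 1, day 0 replicate 3, day 8 replicate 1 or day 8 replicate 2 (edgeR adjusted p = 0.0626 to 0.103). Atf5 (107503), whose mRNA is translated under the same control as that of ATF4, had the highest mean level of all 36 members. It had 538, 536 and 541 FPKM at day 0, 392, 422 and 425 at day 4, and 641, 582 and 629 at day 8, and it changed by -0.32 early and 0.63 late.

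Of the 5 stress regulators, 4 were downregulated early and 3 were upregulated late. Trib3 (228775), a pseudokinase that binds ATF4 and AKT, had 58.5, 59.5 and 59.1 FPKM at day 0, 19.4, 19.4 and 20.6 at day 4, and 66.6, 69.7 and 75.2 at day 8. The day 4 samples were about 2.84-fold lower than day 0 and all day 8 samples exceeded all day 0 samples. Its log2 fold change was -1.51 (standard error 0.06, edgeR adjusted p = 9.7e-13) early and 1.88 (standard error 0.06, edgeR adjusted p = 4.3e-13) late. Chac1 (69065), which breaks down glutathione, had 37.9, 37.4 and 38.5 FPKM at day 0, 13.5, 13.5 and 12.8 at day 4, and 42.2, 41.4 and 46.2 at day 8. Its changes of -1.45 (standard error 0.06, edgeR adjusted p = 5.5e-12) early and 1.75 (standard error 0.06, edgeR adjusted p = 3.1e-12) late were close in size to those of Trib3. Both genes ended higher at day 8 than at day 0, by 0.37 and 0.30 on the log2 scale (edgeR adjusted p = 9.1e-06 and 1.8e-04).

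Ppp1r15a (17872), also called GADD34, directs a phosphatase to eIF2 and so closes the feedback loop. It had 56.4, 58.9 and 61.5 FPKM at day 0, 17.1, 14.9 and 19.8 at day 4, and 40.7, 38.6 and 45.2 at day 8. It showed the deepest early fall of this group, -1.71 (standard error 0.08, edgeR adjusted p = 2.0e-11), and rose late by 1.31 (standard error 0.08, edgeR adjusted p = 2.7e-09). Sesn2 (230784), a leucine sensor that restrains mTORC1, had 42.2, 37.7 and 42.6 FPKM at day 0, 18.1, 18.5 and 17.4 at day 4, and 28.7, 27.9 and 29.9 at day 8. Unlike Trib3 and Chac1, Ppp1r15a and Sesn2 stayed below day 0 at day 8, each by 0.39 (log2 fold changes -0.39 and -0.39, edgeR adjusted p = 2.3e-04 and 1.2e-05). Eif4ebp1 (13685), an inhibitor of cap-dependent translation, had 313, 322 and 301 FPKM at day 0, 295, 327 and 322 at day 4, and 531, 523 and 534 at day 8. Its day 0 and day 4 samples overlapped (early log2 fold change 0.08, edgeR adjusted p = 0.173, 95% interval -0.03 to 0.18), though the early change passed without day 4 replicate 1 (0.12), and it rose late by 0.80 (standard error 0.05, edgeR adjusted p = 2.2e-09).

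**Figure D2:**
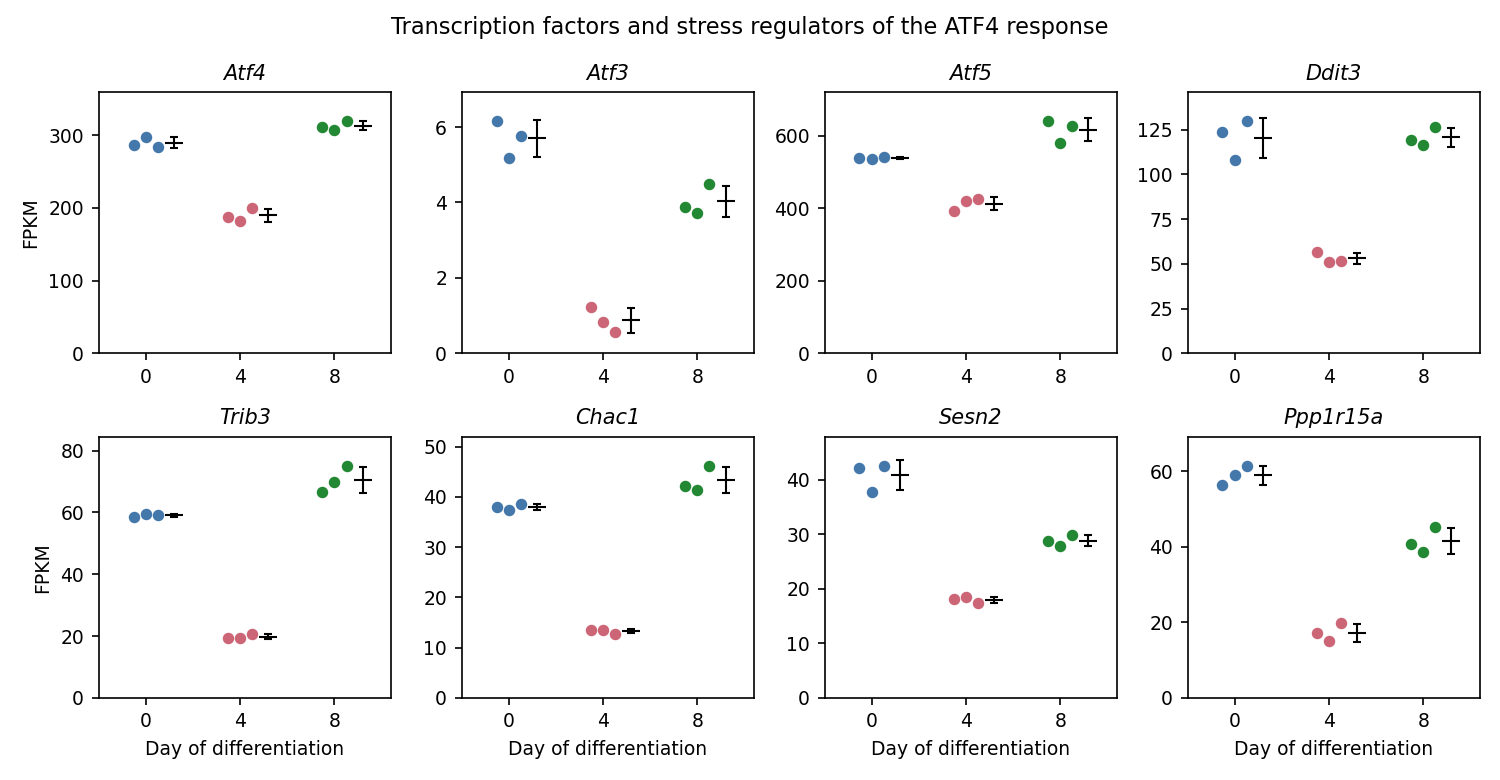
FPKM (y axis, linear, from 0) of the transcription factors and of 4 stress regulators in each sample (points) at days 0, 4 and 8 (x axis), with mean and SD of 3 replicates in black. In all 8 genes the day 4 samples lie below every other sample, and Atf3 shows the deepest fall.

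Of the 6 genes of asparagine, serine and one-carbon synthesis, 4 fell and 2 rose early. Asns (27053), asparagine synthetase, whose promoter core is shown above, had 138, 148 and 132 FPKM at day 0, 84.1, 83.5 and 78.1 at day 4, and 108, 112 and 109 at day 8. It fell early, at -0.70 (standard error 0.05, edgeR adjusted p = 4.0e-09) and rose late by 0.47 (standard error 0.05, edgeR adjusted p = 1.9e-06), and the day 8 samples stayed below those of day 0 (-0.23, edgeR adjusted p = 6.3e-04). The 3 enzymes of serine synthesis had small changes. Phgdh (236539), the first enzyme of that pathway, changed by -0.19 early, Psat1 (107272), the second, by 0.18, and Psph (100678), the last, by -0.44 (edgeR adjusted p = 0.00108, 0.0129 and 7.5e-06). Psat1 thus went up where its neighbours went down, but its early call was lost with 2 other scalings and with both limma fits on FPKM (0.11 to 0.13), and without day 0 replicate 1, day 0 replicate 3 or day 4 replicate 2 (0.14 to 0.16). By day 8 Psat1 rose by 0.49 (standard error 0.06, edgeR adjusted p = 1.3e-06). The values of Phgdh and Psph are uncertain, since 47.8% of the 50-base stretches of Phgdh occur in transcripts of other genes, mostly annotated pseudogenes, and 26.1% of the exon bases of Psph lie under exons of Cct6a on the other strand.

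The mitochondrial enzymes that pass carbon from serine to folate split. Shmt2 (108037), which splits serine into glycine and a folate-bound carbon, had 87.8, 99.4 and 81.4 FPKM at day 0, 43.3, 45 and 39.3 at day 4, and 51.9, 49 and 50.3 at day 8. It was downregulated early, at -1.01 (standard error 0.07, edgeR adjusted p = 1.2e-09), though by less than 2-fold without day 0 replicate 2 or day 4 replicate 3. It rose late by 0.29 and was lower at day 8 than at day 0 (-0.72). Mthfd2 (17768), the next enzyme, had 53.3, 54.8 and 49.6 FPKM at day 0, 100.3, 107 and 111 at day 4, and 66.7, 67.8 and 68.2 at day 8. Every day 4 sample was above every other sample. Mthfd2 was the only member upregulated early, at 1.08 (standard error 0.05, edgeR adjusted p = 1.7e-11), and it fell late, at -0.60 (standard error 0.05, edgeR adjusted p = 7.3e-08). The enzymes around it were examined after these values were seen. Mthfd1l, the mitochondrial synthetase that releases formate, had 16, 18.5 and 15.7 FPKM at day 0, 5.53, 5.92 and 5.42 at day 4, and 11.2, 10.8 and 11.9 at day 8. Aldh1l2, which oxidises the folate-bound carbon to carbon dioxide, had 53.9, 51.6 and 48.9 FPKM at day 0, 17.7, 14.9 and 15.4 at day 4, and 32.4, 34.1 and 34.6 at day 8. Both were lowest at day 4 in every sample, with early log2 fold changes of -1.5 (standard error 0.07, edgeR adjusted p = 2.0e-11) and -1.62 (standard error 0.06, edgeR adjusted p = 1.6e-12), against 1.08 for Mthfd2. The isozyme Mthfd2l did not pass the test early (-0.07, edgeR adjusted p = 0.559, 95% interval -0.28 to 0.14).

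Both genes of proline synthesis fell early and rose late, and they differed in where they ended. Aldh18a1 (56454), which makes the precursor of proline from glutamate, had 62.5, 64.3 and 57.8 FPKM at day 0, 37.2, 36.1 and 33.5 at day 4, and 56.1, 53.1 and 52.9 at day 8. Its changes were -0.72 (standard error 0.05, edgeR adjusted p = 4.9e-09) early and 0.65 (standard error 0.05, edgeR adjusted p = 7.3e-08) late. Its change over the whole process did not pass the test (-0.08, 95% interval -0.19 to 0.04), although it did with upper-quartile factors, with library size alone and with limma (-0.13 to -0.19). Pycr1 (209027), the mitochondrial reductase that completes proline, had 9.8, 9.62 and 10.03 FPKM at day 0, 7.75, 7.98 and 8.25 at day 4, and 14.8, 14.7 and 14.5 at day 8. Its early log2 fold change was small, at -0.23 (standard error 0.06, edgeR adjusted p = 0.00229), its late rise was 0.92 (standard error 0.06, edgeR adjusted p = 2.0e-09), and every day 8 sample was above all others. Cth (107869), which makes cysteine from cystathionine, did not pass the test early (0.05, 95% interval -0.08 to 0.19) and rose late by 0.28 (edgeR adjusted p = 0.00151).

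Of the 5 amino acid transporters, 4 fell early. Late, 2 of the 5 rose and 1 fell. Slc7a5 (20539) encodes LAT1, which brings leucine and other large neutral amino acids into the cell. It had 169.8, 154 and 149.9 FPKM at day 0, 93.3, 96.1 and 92 at day 4, and 93.9, 94.7 and 100.04 at day 8. Day 4 and day 8 samples overlapped and all lay below day 0. Its log2 fold change was -0.69 (standard error 0.05, edgeR adjusted p = 1.1e-08) early and 0.08 late, the latter not passing the test (95% interval -0.03 to 0.20). Slc3a2 (17254), the heavy chain that carries LAT1 and the cystine transporter to the membrane, had 184, 179.8 and 177 FPKM at day 0, 135, 132 and 129 at day 4, and 137, 133 and 141 at day 8. It fell early, at -0.38 (standard error 0.05, edgeR adjusted p = 1.5e-06) and its late change of 0.10 did not pass the test in edgeR (0.0908 as edgeR adjusted p, 0.0342 in DESeq2).

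Slc7a11 (26570), the cystine transporter xCT with its pair of promoter cores, was low throughout, with 1.87, 1.83 and 1.7 FPKM at day 0, 0.45, 0.39 and 0.29 at day 4, and 0.58, 0.54 and 0.48 at day 8. It was downregulated early at -2.19 (standard error 0.13, edgeR adjusted p = 3.4e-10) and was still 3.13-fold lower at day 8 than at day 0, at -1.65 (standard error 0.12, edgeR adjusted p = 6.0e-09). The cationic amino acid transporter Slc7a1 (11987) had 21, 18.5 and 19.1 FPKM at day 0, 10.2, 9.79 and 8.95 at day 4, and 10.5, 11 and 11.2 at day 8. It changed by -0.95 (standard error 0.06, edgeR adjusted p = 9.0e-10) early and 0.22 (standard error 0.06, edgeR adjusted p = 0.00922) late. The late change of Slc7a11 was 0.54 (standard error 0.15, edgeR adjusted p = 0.00841). The late calls of Slc7a1 and Slc7a11 were lost with limma on log2(FPKM + 1), at 0.16 each. Slc7a3 (11989), a related transporter, was near the detection limit with 4 to 20 counts per sample. It had 0.26, 0.27 and 0.3 FPKM at day 0, 0.41, 0.39 and 0.42 at day 4, and 0.09, 0.15 and 0.13 at day 8, where 3 counts are taken as the lowest level that the depth can show. Its early change of 0.66 did not pass the test (edgeR adjusted p = 0.0559, 95% interval 0.04 to 1.28) but did in both limma fits on FPKM (0.14 and 0.43), and it fell late, at -1.68 (standard error 0.34, edgeR adjusted p = 8.3e-04). All 5 transporters were below day 0 at day 8. The -1.02 of Slc7a3 lost its call in DESeq2 (adjusted p = 0.0892) and without day 0 replicate 3 or day 8 replicate 1.

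Vldlr (22359), the receptor for very low density lipoprotein, is a target of ATF4 and also of PPARγ in fat cells. Its window holds the core, as that of Slc7a11 does, and it moved the other way early. It had 13.1, 10.9 and 12.8 FPKM at day 0, 23.2, 23.4 and 23 at day 4, and 18.9, 21.4 and 20.8 at day 8. It rose early by 0.99 (standard error 0.07, edgeR adjusted p = 1.9e-09), and its late change of -0.14 did not pass the test (95% interval -0.28 to -0.00). The late change did pass with library size alone, with both limma fits, with the days modelled apart and without day 0 replicate 2 (-0.14 to -0.19).

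**Figure D3:**
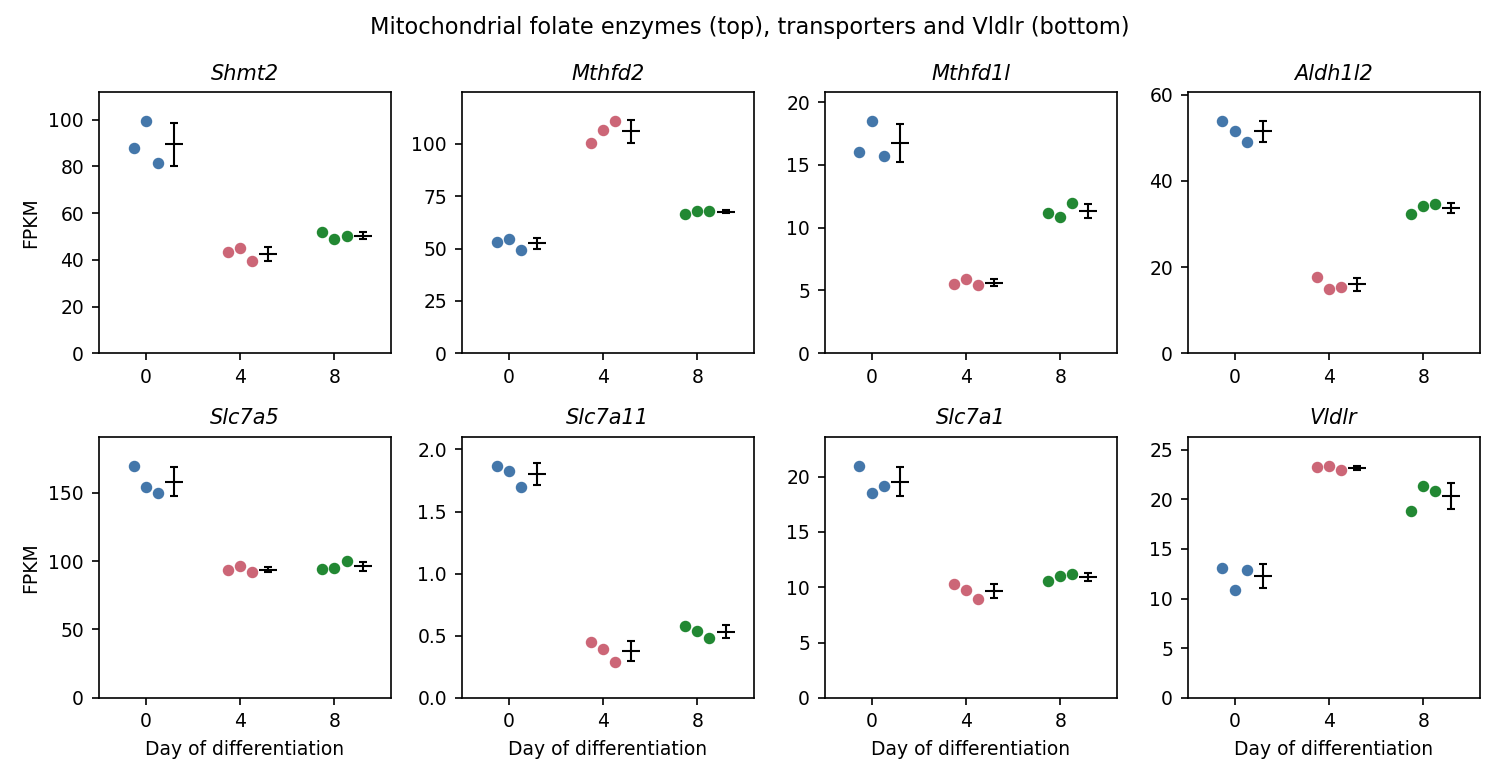
FPKM (y axis, linear, from 0) of 4 mitochondrial folate enzymes, 3 transporters and Vldlr in each sample (points) at days 0, 4 and 8 (x axis), with mean and SD of 3 replicates in black. Mthfd2 is highest at day 4 where Shmt2, Mthfd1l and Aldh1l2 are lowest, and the transporters stay low at day 8.

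The 12 tRNA synthetases on the list join an amino acid to its tRNA in the cytosol, and all 12 fell early. Their log2 fold changes lay between -0.96 and -0.14 with a median of -0.72, and 0 were downregulated more than 2-fold in edgeR with TMM factors and in DESeq2. Aars passed 2-fold with upper-quartile factors, with library size alone and with both limma fits. Aars (234734), for alanine, had the largest fall and had 239, 234 and 226 FPKM at day 0, 119, 116 and 108 at day 4, and 168, 154 and 158 at day 8. Of its 50-base stretches, 13.5% also occur in transcripts of Exosc6, so its values may include reads of that gene. Its changes were -0.96 (standard error 0.05, edgeR adjusted p = 9.3e-11) early and 0.53 (standard error 0.05, edgeR adjusted p = 4.8e-07) late. Late, 11 of the 12 rose, between 0.19 (Tars, 110960, for threonine) and 0.58 (Wars, 22375, for tryptophan), and Lars (107045), for leucine, did not pass the test (0.15, edgeR adjusted p = 0.068). The late change of Lars did pass with median-of-ratios factors, in DESeq2, with the days modelled apart and without day 0 replicate 2 or day 4 replicate 1 (0.15 to 0.20).

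Lars had 43.1, 48.8 and 41.2 FPKM at day 0, 24.1, 22.4 and 21 at day 4, and 25, 24 and 23.5 at day 8. Its early log2 fold change was -0.91 (edgeR adjusted p = 1.6e-09). Wars had 44.5, 41.5 and 41.6 FPKM at day 0, 21.4, 22.7 and 21.7 at day 4, and 32.1, 31.6 and 32 at day 8, with -0.86 early and 0.58 late (edgeR adjusted p = 1.4e-10 and 7.9e-08). Cars (27267, cysteine), Iars (105148, isoleucine), Nars (70223, asparagine) and Tars changed early by -0.91, -0.91, -0.72 and -0.49, and late by 0.29, 0.32, 0.26 and 0.19. For Sars (20226, serine) and Eprs (107508, glutamate and proline) the early changes were -0.72 and -0.67 and the late changes 0.35 and 0.37. Differences between synthetases were not tested. Gars (353172), for glycine, had 157, 158 and 144 FPKM at day 0, 107, 112 and 107 at day 4, and 136, 137 and 137 at day 8. In FPKM its day 8 samples lay between those of days 4 and 0, while on the scale that was tested day 8 and day 0 samples overlapped. Its change over the whole process did not pass the test (-0.05, 95% interval -0.15 to 0.05), although it did with library size alone and with limma (-0.16). Mars (216443), for methionine, moved least early (-0.14, edgeR adjusted p = 0.0166, lost without day 0 replicate 1) and ended above day 0 by 0.16, a call lost with 2 other scalings and both limma fits (0.05 to 0.11). Yars (107271), for tyrosine, fell by 0.28 early and rose by 0.37 late, and its change over the whole process did not pass the test (0.09, 95% interval -0.01 to 0.19), although it did with the days modelled apart (0.11). At day 8, 9 of the 12 were lower than at day 0 and 1 was higher.

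Synthetases outside the list are given beside these by counts and medians, and the difference between the lists was not tested. Of 11 cytosolic synthetases and complex proteins outside the list, 1 rose and 2 fell early, with a median of 0.02. The one with the largest change was Vars, for valine, which had 42.6, 42 and 37.7 FPKM at day 0, 24.8, 28.1 and 25.6 at day 4, and 25.4, 25.1 and 25.3 at day 8 and fell early, at -0.57 (standard error 0.06, edgeR adjusted p = 2.0e-07). Its late change was -0.01 (95% interval -0.13 to 0.12). Kars, for lysine, fell by 0.18 and Farsa, a subunit for phenylalanine, rose by 0.16. Late, Qars and Rars, for glutamine and arginine, fell by 0.31 and 0.30, and Dars, for aspartate, rose by 0.28. Of the 17 mitochondrial synthetases, 14 rose and 0 fell early (edgeR, and 0 also at an unadjusted p under 0.05 and in DESeq2), with a median of 0.40. Among them, Nars2 and Ears2, for asparagine and glutamate, rose by 0.80 and 0.71. Nars2 had 1.53, 1.58 and 1.73 FPKM at day 0, 2.62, 2.69 and 2.77 at day 4, and 2.6, 2.5 and 2.3 at day 8. Late, 4 mitochondrial synthetases fell, among them Wars2, Mars2 and Lars2 (-0.35, -0.32 and -0.31), and 13 did not pass the test. DESeq2 called 2 late falls in place of 4.

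**Figure D4:**
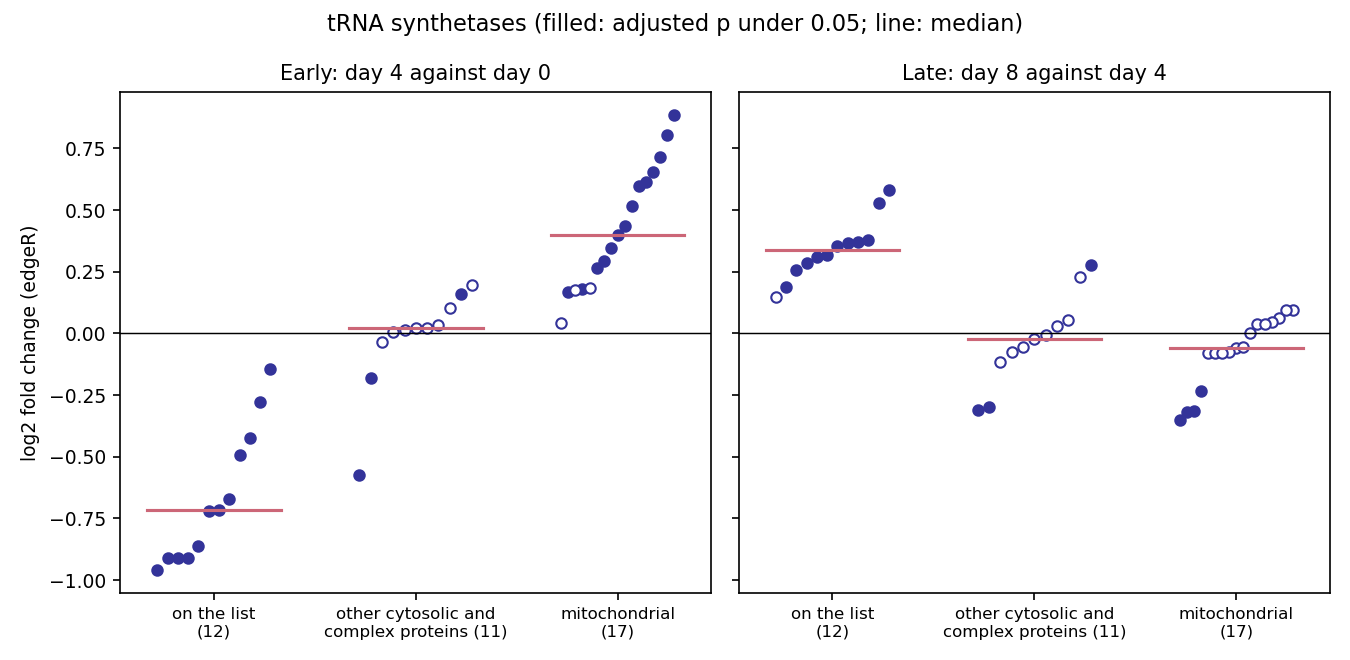
Log2 fold changes (y axis, edgeR) of each synthetase (points, filled where the adjusted p is under 0.05) for the 12 on the list, 11 other cytosolic synthetases and complex proteins and 17 mitochondrial ones, with the median as a line. Early, all 12 on the list lie below 0 and all 17 mitochondrial ones above it, and late the 12 lie above 0.

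Upstream of ATF4, 4 kinases phosphorylate eIF2. Eif2ak4, which encodes GCN2, the sensor of uncharged tRNAs, had 11.4, 11.4 and 11.6 FPKM at day 0, 6.94, 6.13 and 6.17 at day 4, and 6.78, 6.71 and 5.99 at day 8. It fell early, at -0.80 (standard error 0.06, edgeR adjusted p = 9.1e-09) and did not pass the test late (0.09, 95% interval -0.05 to 0.23). Eif2ak3, which encodes PERK, the sensor in the endoplasmic reticulum, had 10.1, 9.6 and 9.53 FPKM at day 0, 12.9, 12 and 10.4 at day 4, and 12.1, 11.8 and 11.3 at day 8 and rose early by 0.35 (standard error 0.07, edgeR adjusted p = 3.8e-04). Eif2ak2, the interferon-inducible kinase PKR, was downregulated early, at -1.39 (standard error 0.07, edgeR adjusted p = 2.5e-11) and showed -0.06 late (edgeR adjusted p = 0.529). Eif2ak1, the heme-regulated kinase HRI, rose early by 0.28 and fell late by 0.17 (edgeR adjusted p = 6.3e-04 and 0.027). Of the 14 kinases, eIF2 and eIF2B subunits and regulators tested, 5 rose and 4 fell early, with a median of -0.09. These are mRNA levels, and the phosphorylation of eIF2 was not measured here.

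Among 10 partners and cofactors, 6 rose and 2 fell early. Cebpd, an early adipogenic C/EBP factor, had 21.4, 22 and 25.6 FPKM at day 0, 98.4, 102 and 101 at day 4, and 18.6, 17.5 and 17.7 at day 8, so all day 4 samples were above the rest. It was upregulated early at 2.19 (standard error 0.06, edgeR adjusted p = 2.3e-14) and downregulated late at -2.44 (standard error 0.06, edgeR adjusted p = 6.0e-14). Cebpa, the C/EBP factor of mature adipocytes, was upregulated early at 3.96. Jdp2, a repressor of the AP-1 family that can dimerize with ATF proteins, rose late by 0.62. Fos, an immediate early gene, varied most, with 29.8, 34.3 and 53.4 FPKM at day 0, 106, 67.3 and 185 at day 4, and 35.1, 29.8 and 38.4 at day 8, so that its upregulation of 1.67 (standard error 0.27, edgeR adjusted p = 3.6e-05) rests on scattered values.

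Of 20 further genes known as ATF4 targets, 17 were tested, and 11 fell and 4 rose early, with a median of -0.70. Late, 13 rose and 2 fell, with a median of 0.50. Fgf21, Stc2 and Cbs did not pass the filter on low counts. Bcat1, the cytosolic branched-chain aminotransferase, had 16.2, 18.9 and 15 FPKM at day 0, 2.85, 2.67 and 2.59 at day 4, and 4.79, 4.2 and 4.08 at day 8. It was downregulated early at -2.56 (standard error 0.08, edgeR adjusted p = 1.5e-13) and rose late by 0.73. Gdf15, a stress hormone, had 2.76, 2.63 and 1.84 FPKM at day 0, 1.12, 1.01 and 1.48 at day 4, and 4.61, 4.83 and 5.71 at day 8, and it fell early, at -0.93 (standard error 0.22, edgeR adjusted p = 0.00159) and was upregulated late at 2.11 (standard error 0.20, edgeR adjusted p = 3.5e-07). Ero1l, an oxidase that serves disulfide formation, had 64.7, 52.2 and 53.5 FPKM at day 0, 40.6, 44.3 and 48.2 at day 4, and 178, 241 and 278 at day 8. It was upregulated late at 2.43 (standard error 0.13, edgeR adjusted p = 4.3e-10). Early, 4 were downregulated and 3 upregulated. Beside Bcat1, the downregulated genes were Slc6a9, a glycine transporter (-2.02), Aldh1l2 and Mthfd1l, of which Slc6a9 was named after its value was seen. The 3 upregulated were Slc43a1, a large neutral amino acid transporter (2.38), Ddit4, an inhibitor of mTORC1 that glucocorticoids also induce (2.07), and Slc1a5, a glutamine transporter named after its value was seen (1.65). Ddit4 had 26.6, 25.9 and 25.9 FPKM at day 0, 99.1, 106 and 109 at day 4, and 38.5, 39.6 and 46.1 at day 8, so its day 4 samples were above all others.

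Chaperones of the endoplasmic reticulum, driven by the ATF6 and XBP1 arms of the stress response, mostly rose early. Of 12 such genes, 11 rose and 1 fell early, with a median of 0.74, while the members of the ATF4 list had -0.69. Xbp1, the transcription factor of one arm, had 24, 23.3 and 23.6 FPKM at day 0, 72.5, 85.2 and 90.2 at day 4, and 91.7, 93.3 and 99.2 at day 8 and was upregulated early at 1.87 (standard error 0.07, edgeR adjusted p = 1.1e-12). Dnajb9, a cochaperone, was upregulated early at 1.51, and Pdia6, a disulfide isomerase, rose by 0.90. Late, 3 of the 12 rose and 3 fell, with a median of 0.05. Edem1, which helps discard misfolded glycoproteins, rose by 0.61 and Hspa5, which encodes the chaperone BiP, by 0.26, while Pdia6 fell by 0.27.

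The state of the cells moved with these changes. Markers of adipocytes summed to 144, 138 and 138 FPKM in the day 0 samples, 6091, 7239 and 8733 at day 4 and 9031, 9841 and 9765 at day 8 (8 genes, Fabp4 the most abundant, all 8 upregulated early). The label calls all 9 samples adipocytes, but Plin1 and Cidec, which coat lipid droplets, were below 1 FPKM in every day 0 sample. Preadipocyte and fibroblast markers summed to 6677, 6649 and 6828 FPKM at day 0, 4199, 4200.4 and 3849 at day 4 and 4933, 4807 and 4847 at day 8 (8 genes, Vim the most abundant, 7 falling early and 6 rising late). Among them, Dlk1, a marker of preadipocytes, had 794, 828 and 861 FPKM at day 0, 183, 193 and 166 at day 4, and 418, 409 and 419 at day 8, lowest at day 4. Markers of proliferation summed to 186, 246 and 195 FPKM at day 0, 122, 115 and 125 at day 4 and 141, 137 and 129 at day 8 (8 genes, Pcna the most abundant, all 8 falling early and 4 rising late). The part of differentiation state and of proliferation in the changes of the 36 members was not tested.

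Markers of other cells were low, and some of them moved between the days. The protocol in the labels names DRG, an abbreviation in common use for dorsal root ganglia, as the source. The sensory neuron gene Scn10a was not listed above 0 in 8 samples and was at 0.01 FPKM in the other, and the 9 neuronal markers summed to at most 3.19 FPKM per sample (Avil the most abundant). Of the 2 genes of that list that were tested, 1 fell and 1 rose early. Avil, an actin-binding protein of sensory neurons, had 2.62, 2.09 and 2.25 FPKM at day 0, 0.52, 0.5 and 0.52 at day 4, and 0.49, 0.42 and 0.54 at day 8, highest at day 0. Snap25, a gene of vesicle fusion, had 0, 0.08 and 0 FPKM at day 0, 1.08, 1.1 and 1.17 at day 4, and 1.13, 1.04 and 1.12 at day 8, so it was above 1 FPKM at days 4 and 8 in every sample. The 6 macrophage markers summed to 4.91, 4.65 and 5.63 FPKM at day 0, 2.93, 2.28 and 2.97 at day 4 and 3.16, 3.81 and 3.1 at day 8 (Cd68 the most abundant, Ptprc at most 0.04). Of the 4 tested, 2 fell early and 1 rose late. Lyz2, a lysozyme, had 1.81, 1.26 and 2.33 FPKM at day 0, 0.48, 0.4 and 0.32 at day 4, and 0.97, 1.04 and 0.78 at day 8, so it was lowest at day 4 like most members, and Aif1 fell early by 1.36. The 5 endothelial markers summed to 1.08, 0.78 and 0.85 FPKM at day 0, 0.31, 0.27 and 0.24 at day 4 and 0.37, 0.34 and 0.34 at day 8 (Vwf the most abundant). Of the 2 tested, Vwf fell early by 2.96 and Pecam1 rose late by 1.01. The levels of Lyz2 and Avil are in the range of the least abundant members, such as Slc7a11. The part of other cell types in the changes of the members was not tested.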

How the data were processed

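RNA of 9 3T3-L1 samples was sequenced, 3 at each of days 0, 4 and 8. The authors filtered and mapped the reads (the submitters' processing notes name CASAVA 1.4 and Bowtie2) and deposited RSEM expected counts per gene, which were rounded here to whole numbers. The authors also deposited FPKM, normalised to gene length and depth, which was used for levels. The genome build, the strand setting and the version of RSEM are not given in the sources used here. Totals lay between 18216114 and 20452144 counts per sample, and 3 counts were taken as the lowest level shown.

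Genes passing filterByExpr (13154) were fitted in edgeR 4.0.16 (R 4.3.3) with TMM factors and the quasi-likelihood test, without a covariate, and p-values were adjusted by Benjamini-Hochberg over all of them. A further 20 settings were tried, including DESeq2 1.42.0 and limma 3.58.1 on log2(FPKM + 1) and log2(FPKM + 0.1). The members and the lists of other genes were chosen with earlier results of these data known. All members were named, and of each other list at most 3 genes per phase with the largest change that passed the test, together with the upstream kinases and the markers. Mthfd1l, Aldh1l2, Mthfd2l, Slc1a5, Slc6a9 and Sesn3 fall outside this rule and were named after their values were seen. Reads shared with other genes were estimated as the share of 50-base stretches of each gene found in transcripts of other genes. Promoter windows were those of RefSeq on GRCm38.p6. A gene that the naming rule picks and a promoter stretch are not reported here.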

Additional observations from a re-analysis of the deposited data

How the results depend on the processing

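Over the 20 other settings, 2099 values of single members stayed on their side of the threshold in the same direction, 27 no longer passed, 24 passed anew and 7 changed sign. None of the 7 had passed the test. With library size alone, the whole-process change of Ddit3 was -0.0013, the early change of Cth -0.0109 and the whole-process change of Yars -0.0205. With limma, Cth was -0.0119 on log2(FPKM + 1) and -0.0124 on log2(FPKM + 0.1), and Yars -0.0208 and -0.0212. The cause was not tested.

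Counts of members past 2-fold rest on few genes. Early downregulation (8 members) became 10 with upper-quartile factors, library size alone and limma on log2(FPKM + 0.1), where Aars and Slc7a1 pass 2-fold, and 9 with limma on log2(FPKM + 1). Early upregulation (1 member) became 0 with limma on log2(FPKM + 1), late downregulation (1) became 0 there and with at least 10 counts in every sample, and the late falls (2) became 1 with that filter, which drops Slc7a3. Downregulation over the whole process (2) became 0 with limma on log2(FPKM + 1), and 1 with limma on log2(FPKM + 0.1), with DESeq2 and with the filter of 10 counts. Leaving out each replicate gave 29 to 30 early falls, 2 to 4 early rises, 7 to 8 members downregulated and 1 to 2 upregulated early. It gave 29 to 30 late rises, 2 to 3 late falls, 5 upregulated and 1 downregulated late. Over the whole process it gave 19 to 21 falls, 11 to 12 rises, 0 upregulated and 1 to 2 downregulated. The count of early upregulation was 2 without day 0 replicate 1 or day 0 replicate 3, and that of whole-process downregulation 1 without day 0 replicate 3 or day 8 replicate 1.

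Samples with the same replicate number did not all deviate together (correlations of -0.049 to 0.152 across genes), so the numbers were not taken to pair the samples. With the replicate block, the late rise of Lars passed the test (0.15, edgeR adjusted p = 0.0408), and no other call among the members changed. Slc7a3, with 4 to 20 counts per sample, is the member whose values depth limits most.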

Other observations

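Genes that handle glutamine, glutamate and proline outside the list mostly rose early. Of 8 such genes, 7 rose and 1 fell early. Glul, glutamine synthetase, which glucocorticoids are known to induce, had 5.98, 7.1 and 6.7 FPKM at day 0, 262, 292 and 299 at day 4, and 77.7, 83.7 and 83.2 at day 8. The days did not overlap, and its log2 fold change was 5.5 (standard error 0.08, edgeR adjusted p = 1.2e-17) early and -1.76 (standard error 0.06, edgeR adjusted p = 2.3e-12) late. Prodh and Aldh4a1, which break proline down to glutamate, were upregulated early at 4.12 and 2.06 (edgeR adjusted p = 3.7e-08 and 1.7e-13), while Aldh18a1 and Pycr1, which make it, fell by 0.72 and 0.23. Aldh4a1 had 9.07, 8.95 and 9.79 FPKM at day 0, 34.4, 38.6 and 38.1 at day 4, and 19.4, 22.1 and 21.8 at day 8, and Prodh stayed at or below 1.51 FPKM with 1 to 5 counts per sample at day 0, so the size of its change is imprecise. Glud1, glutamate dehydrogenase, fell late by 0.98 (edgeR adjusted p = 2.4e-10). The early and late values share the day 4 samples.

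Among 13 one-carbon and glycine enzymes outside the list, 3 rose and 5 fell early. Aldh1l1, the cytosolic counterpart of Aldh1l2, had 0.14, 0.09 and 0.16 FPKM at day 0, 1.29, 1.32 and 1.81 at day 4, and 2.07, 1.88 and 2.08 at day 8 and was upregulated early at 3.54 (standard error 0.24, edgeR adjusted p = 1.8e-09), while Aldh1l2 had -1.62. Gcsh, a subunit of the glycine cleavage system, rose early by 0.74 and Gcat, of threonine breakdown, fell by 0.73. Amt, another subunit of that system, fell late by 1.00 on the log2 scale (edgeR adjusted p = 0.00355).

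Of 6 targets of NRF2, a factor that also drives Slc7a11, 4 fell and 1 rose early, led by Txnrd1, Hmox1 and Gclc (-0.58, -0.41 and -0.35). Hmox1, heme oxygenase, had 189, 181 and 184 FPKM at day 0, 141, 132 and 125 at day 4, and 306, 328 and 368 at day 8 and was upregulated late at 1.38 (standard error 0.07, edgeR adjusted p = 1.6e-10), while Gclm rose by 0.53 and Nqo1 fell by 0.42. Among 10 tested genes of mTORC1 and amino acid sensing, 4 rose and 3 fell early. Ddit4, already counted among the further ATF4 targets, is also on this list and is among the 4 that rose. Sesn1, a relative of Sesn2, had 10.2, 11.1 and 11.2 FPKM at day 0, 36.7, 32.5 and 31.7 at day 4, and 17.1, 16.4 and 16.3 at day 8, and it was upregulated early at 1.65 (standard error 0.06, edgeR adjusted p = 1.7e-12) where Sesn2 was downregulated at -1.11. Sesn3, a further relative, had means of 46.75, 29.7 and 37.9 FPKM at days 0, 4 and 8. As with Sesn2, its day 4 samples lay below all others. Fnip1 fell early by 0.67 and Flcn, its partner, fell late by 0.54.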
